A study of Rattus norvegicus with 5 samples.

Results

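Vascular endothelial growth factors (VEGFs) and angiopoietins are secreted signals that guide the growth and stability of blood vessels. Transcripts of 10 such genes were followed here in parietal cortex of rats with kaolin-induced hydrocephalus and of saline-injected rats. They are the ligands Vegfa, Vegfb, Vegfc, Angpt1 and Angpt2, the receptors Flt1, Kdr and Tek, and the co-receptors Nrp1 and Nrp2. The genes were chosen by name, and every probe carrying one of these names, or a current rat symbol among them, was taken. This gave 15 of the 41012 probes on the array. Of these, 13 probes of 8 genes passed a filter on dim probes, while the single probes of Nrp2 and Tek did not.

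Kaolin is a clay that obstructs the flow of cerebrospinal fluid, so that the ventricles enlarge. Pups received kaolin, or saline as the sham control, on postnatal day 1, and cortex was taken on postnatal day 22, which was post-kaolin day 21. Each of 5 two-colour arrays carried RNA of 1 kaolin sample in Cy3 and of 1 saline sample in Cy5, giving 5 samples per group. The labels do not say whether a sample was a single animal, name no strain, and show no array with the dyes exchanged. Dye and treatment therefore cannot be told apart, and p-values measure the spread between arrays only.

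The kaolin channel had 27956 to 29385 probes well above background per array, and the saline channel 27372 to 28930. Of the neuron markers, 11 of 11 passed the filter on dim probes in this cortex. The arrays differed among themselves. Over the 29114 tested probes, log2 ratios of replicates 3 and 4 had a correlation of 0.83, while those of replicates 1 and 2 had one of -0.37. The labels give every array the same dye orientation, and that direction was kept. Means with the sign of replicate 2 turned are given beside the main ones for the members the results turn on. Replicates 1 to 4 lay on 1 slide and replicate 5 on another.

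VEGF-A acts on endothelial cells mainly through the receptor tyrosine kinase Kdr (VEGFR-2). Flt1 (VEGFR-1) binds VEGF-A more tightly but signals weakly, and it is the receptor for VEGF-B. Neuropilins hold VEGF at the cell surface and also serve as receptors for class 3 semaphorins. Angpt1, made by cells around the vessel, activates the endothelial receptor Tek (Tie2) and stabilises vessels. Angpt2 is released by endothelial cells and can block or replace Angpt1 at the same receptor. In brain, astrocytes, neurons and choroid plexus epithelium are known sources of VEGF-A. In bulk tissue, fewer cells of a type and less RNA per cell cannot be told apart.

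The comparison asked how the transcripts of these ligands and receptors differ in cortex between kaolin and saline rats. With loess normalization and all 5 arrays Angpt2 had the largest mean difference, though not with median centring or without replicate 3. It lay above saline on 4 of 5 arrays with each of its 3 probes. Vegfa and Vegfb lay below saline, Vegfa on 4 of 5 arrays with its brighter probe and Vegfb on 5 of 5. Angpt1 and the dimmer Flt1 probe were above saline on 4 of 5 arrays too. Kdr, Nrp1, Vegfc and the brighter Flt1 probe were split 3 to 2. The share of all tested probes with 4 of 5 arrays alike was not counted. Kdr had a mean of -0.17, and Nrp1, Flt1, Vegfc and Angpt1 had means within 0.08 of 0. None of the 13 tested member probes passed an adjusted p of 0.05 in limma. Over all tested probes the share that passed was 0% (0 of 29114). At an unadjusted p under 0.05 there were 5 of 13 member probes, 2 higher in kaolin (both Angpt2) and 3 lower (both Vegfb probes and 1 of Vegfa). The same unadjusted rule took 18.1% of all tested probes, 8.82% as higher and 9.32% as lower.

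**Figure D1:**
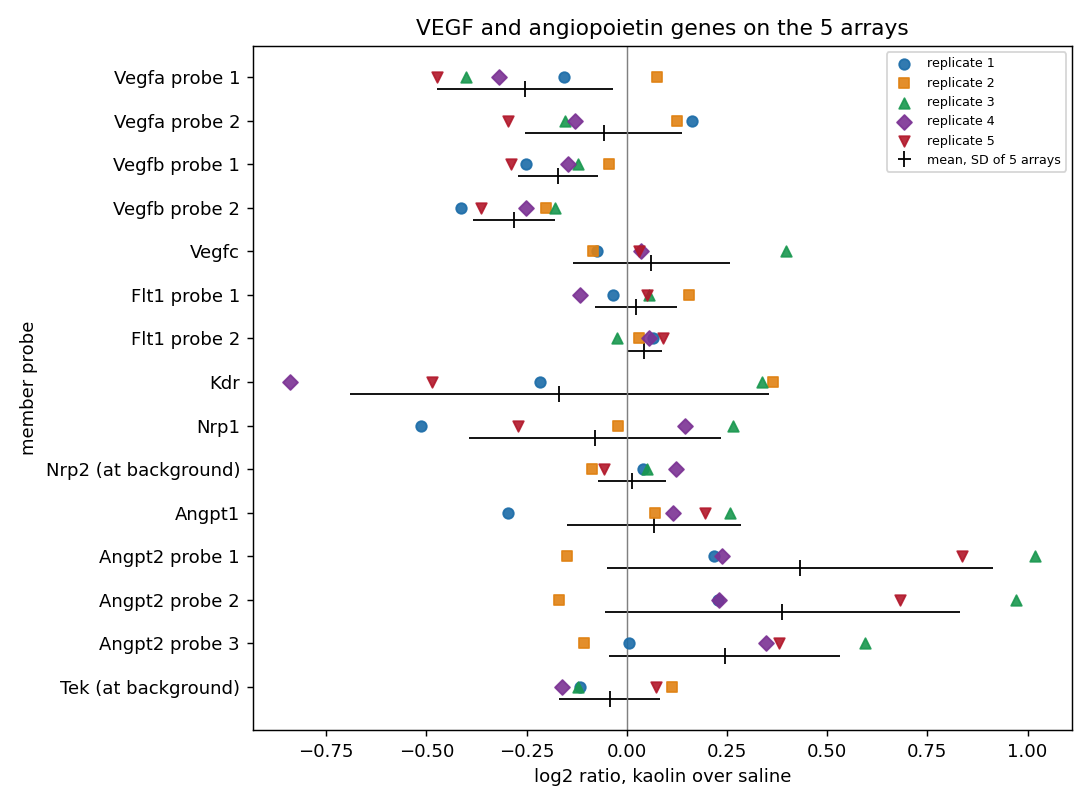
Log2 ratio of kaolin over saline (horizontal axis) for each of the 15 member probes (rows), 1 symbol per array, with the mean and SD of the 5 arrays as a black bar below. The 3 Angpt2 probes lie mostly to the right of 0, the Vegfb probes wholly to the left, and Kdr reaches from -0.84 to 0.37.

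Because Vegfa and Vegfb were the 2 ligands below saline, the sequence around their starts is shown, from RefSeq on GRCr8 (250 bases before to 50 after the start). Of the 10 members, 7 matched the promoter table, with 8 windows (not Angpt1, Angpt2 or Tek). Capitals mark the GC box GGGCGG on either strand (CCGCCC on the other), a letter pattern bound by Sp1-type factors. The Vegfa window is chr9:22452604-22452903 (plus strand) and the Vegfb window is chr1:213607103-213607402 (minus strand).
Vegfa: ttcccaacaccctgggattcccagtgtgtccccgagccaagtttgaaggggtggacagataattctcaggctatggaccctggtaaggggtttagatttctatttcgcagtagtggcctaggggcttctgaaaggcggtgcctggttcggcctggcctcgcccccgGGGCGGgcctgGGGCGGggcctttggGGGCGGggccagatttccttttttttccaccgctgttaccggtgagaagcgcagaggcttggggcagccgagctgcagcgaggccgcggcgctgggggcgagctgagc
Vegfb: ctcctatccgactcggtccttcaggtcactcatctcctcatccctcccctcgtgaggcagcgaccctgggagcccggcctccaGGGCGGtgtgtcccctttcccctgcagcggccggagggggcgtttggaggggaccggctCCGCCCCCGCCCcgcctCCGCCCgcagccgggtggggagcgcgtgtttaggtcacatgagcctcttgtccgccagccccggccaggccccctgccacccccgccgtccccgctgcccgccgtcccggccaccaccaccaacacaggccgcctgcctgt
The Vegfa window held 3 matches and the Vegfb window 4, and 33.1% of the 33469 windows of the same length held at least 1. The windows of Flt1 (3 matches), Vegfc (2) and Kdr (1) held the pattern too, and those of Nrp1, Nrp2 and the second Vegfa start did not. ACGTG, one form of the core letters of the hypoxia response element (CACGT on the other strand), was found in 0 of the 8 windows, against 19.3% of all windows. The other form, GCGTG, was not counted over the windows, and the Vegfb window shown holds it. A match describes letters only, and the windows do not reach distant elements.

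Among the ligands, Vegfa had 2 probes that gave different means. The brighter one (A_43_P15572, chr9:10528580-10528965 on rn4, the build of the probe positions) is printed 10 times on each array. Its log2 ratios of kaolin over saline were -0.16, 0.08, -0.40, -0.32 and -0.47 on replicates 1 to 5. Replicate 2 alone was above 0, and replicates 3, 4 and 5 were the lowest. The mean was -0.25 ± 0.22 (SD, n = 5), a fold of 0.838, with a 95% confidence interval from -0.48 to -0.03 on the log2 scale. It had p = 0.0319 and an adjusted p of 0.251 in limma, and p = 0.125 in an exact two-sided sign-flip test. In log2 normalized intensity it ran from 8.41 to 8.86 in kaolin samples (median 8.66) and from 8.78 to 8.98 in saline samples (median 8.89), so the groups overlapped. Turning the sign of replicate 2 gave a mean of -0.28 (limma, adjusted p = 0.077).

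The repeated spots show how precisely one array measures this ratio. On replicates 1, 3, 4 and 5, 10 of 10 spots were below 0, and on replicate 2 it was 0 of 10. The SD over spots within an array had a median of 0.07, against an SD of 0.22 over the 5 array means.

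**Figure D2:**
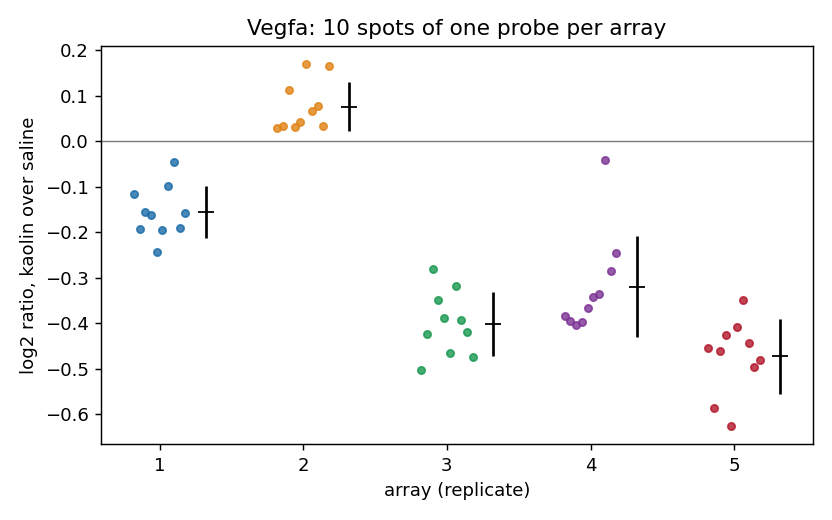
Log2 ratio of kaolin over saline (vertical axis) for the 10 spots of the brighter Vegfa probe on each array (horizontal axis); points are spots, and bars show the mean and SD of the spots. Spots of replicate 2 lie above 0 (0.03 to 0.17) and those of the other 4 arrays below it.

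The dimmer Vegfa probe (A_44_P300751, chr9:10521744-10521803) had log2 ratios of 0.16, 0.12, -0.15, -0.13 and -0.30. Replicates 1 and 2 were above 0 and the others below. Its mean of -0.06 ± 0.20 (SD, n = 5) had a 95% confidence interval from -0.27 to 0.15 (limma, adjusted p = 0.735). Averaging both probes gave Vegfa a mean of -0.16 (adjusted p = 0.370). No gene models on rn4 were used here, so exons and UTRs were not assigned to the probes.

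Vegfb, a ligand of Flt1 linked to fatty acid uptake and cell survival, was below saline with both probes. The probe A_43_P16059 (chr1:209660039-209660384) had log2 ratios of -0.41, -0.20, -0.18, -0.25 and -0.36. No array stood apart. In log2 normalized intensity its kaolin samples had 9.52, 9.58, 9.57, 9.53 and 9.31, against 9.93, 9.79, 9.75, 9.78 and 9.67 in saline samples, and the groups did not overlap. Levels without overlap were found for 3.06% of all tested probes, and for 1 of the 13 tested member probes. The mean was -0.28 ± 0.10 (SD, n = 5), a fold of 0.822. It had p = 0.00456 and an adjusted p of 0.243 in limma, and p = 0.0625 in an exact two-sided sign-flip test, the smallest that 5 arrays allow. The brighter probe A_44_P159040 (chr1:209659244-209659672) had -0.25, -0.04, -0.12, -0.15 and -0.29, with a mean of -0.17 ± 0.10 (adjusted p = 0.263). Negative on 5 of 5 arrays were these 2 probes of the 13, and 6.64% of all tested probes. Positive on 5 of 5 arrays were 0 of the 13, and 6.22% of all tested probes. Turning the sign of replicate 2 gave them means of -0.20 and -0.15 (limma, adjusted p = 0.218 and 0.195).

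Vegfc, which acts through Flt4 on lymphatic endothelium and on some neural progenitors, had log2 ratios of -0.08, -0.08, 0.40, 0.04 and 0.03 (A_43_P14264, chr16:40624468-40624527). Replicate 3 was high and the other 4 lay near 0. The mean was 0.06 ± 0.20 (SD, n = 5; limma, adjusted p = 0.718), and without replicate 3 it was -0.02.

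**Figure D3:**
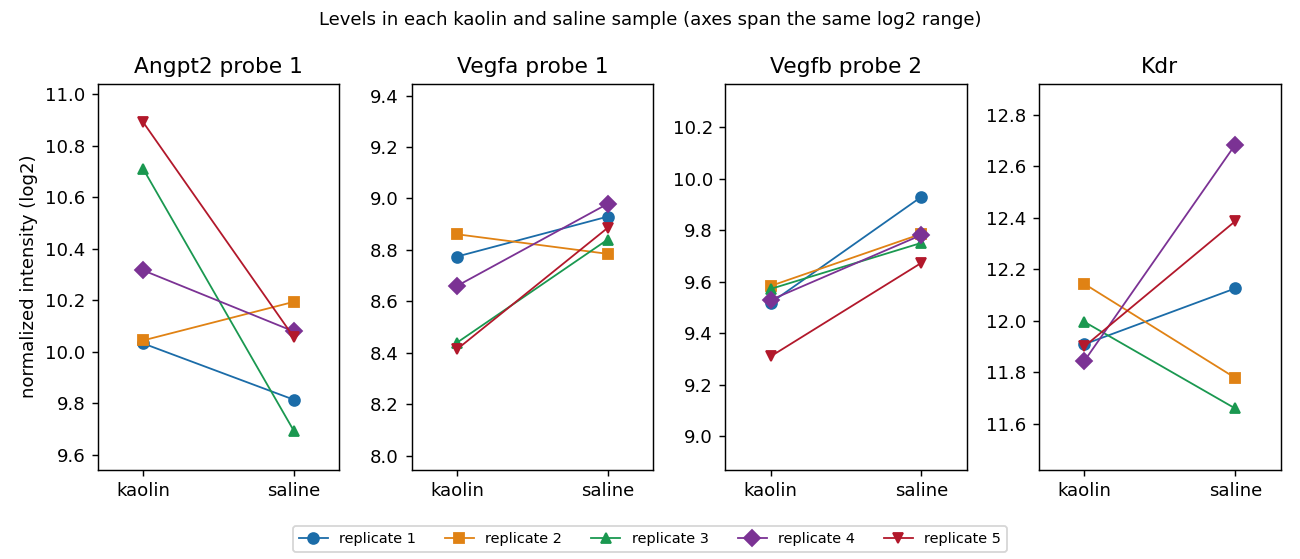
Normalized intensity (log2, vertical axes) of 4 member probes in each kaolin and saline sample, with a line joining the 2 samples of an array; each panel spans the same log2 range. Vegfb is shown by its dimmer probe, with which the samples separate by treatment. With its brighter probe (not shown) they overlap, from 9.40 to 9.78 in kaolin and from 9.69 to 9.88 in saline. The kaolin samples of Kdr (11.84 to 12.14) spread less than its saline samples (11.66 to 12.68).

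Angpt2 had 3 probes, and their order over the arrays was alike. The brightest (A_44_P792166, chr16:75941973-75942032) had log2 ratios of 0.22, -0.15, 1.02, 0.24 and 0.84. Replicates 3 and 5 were high and replicate 2 was below 0. In log2 normalized intensity its kaolin samples had 10.03, 10.04, 10.71, 10.32 and 10.89, against 9.81, 10.19, 9.69, 10.08 and 10.06 in saline samples. The groups overlapped, and the 3 highest of the 10 levels were kaolin samples. The mean ratio was 0.43 ± 0.48 (SD, n = 5), a 1.35-fold value with a 95% confidence interval from 0.02 to 0.84 on the log2 scale. It had p = 0.0419 and an adjusted p of 0.264 in limma, and p = 0.125 in an exact two-sided sign-flip test. It was 0.29 without replicate 3 and 0.58 without replicate 2, and 0.49 when replicate 2 had its sign turned (adjusted p = 0.67, 0.0748 and 0.0867 in limma).

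The second Angpt2 probe (A_43_P15980, chr16:75939239-75939298) gave 0.23, -0.17, 0.97, 0.23 and 0.68, with a mean of 0.39 ± 0.44 (adjusted p = 0.272). The dimmest one (A_44_P419123, chr16:75922930-75927323) gave 0.01, -0.11, 0.60, 0.35 and 0.38, with a mean of 0.24 ± 0.29 (adjusted p = 0.300). All 3 were lowest on replicate 2 and highest on replicate 3. On the scanner software's processed signals the dimmest probe had a mean of 0.63, against 0.42 and 0.44 for the others.

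By root mean square difference of the 5 array values, the genes most like Angpt2 among 12035 were Gzmm (0.07), Ndc80 (0.10) and Cdc20 (0.11). Gzmm encodes a granzyme of cytotoxic lymphocytes. Ndc80 encodes a kinetochore protein and Cdc20 an activator of the anaphase-promoting complex. Cdc20, for example, had log2 ratios of 0.10, -0.19, 1.08, 0.24 and 0.64.

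Angpt1 (A_44_P1058692, chr7:78195504-78195509, as the files give it) had log2 ratios of -0.30, 0.07, 0.26, 0.11 and 0.19. Replicate 1 was low and the other 4 were above 0. The mean was 0.07 ± 0.22 (SD, n = 5), with a 95% confidence interval from -0.15 to 0.29 (limma, adjusted p = 0.704). It was 0.16 without replicate 1 and 0.02 without replicate 3. The balance of the 2 angiopoietins was compared within each array. Angpt2 minus Angpt1 was 0.52, -0.22, 0.76, 0.12 and 0.64, positive on 4 of 5 arrays, with a mean of 0.36 ± 0.41. An exact sign-flip test gave p = 0.1875 (two-sided), or 0.375 adjusted over the 2 pairs tested.

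Among the receptors, Kdr had the widest spread of all member probes. Its probe (A_43_P11686, with no position in the files) had log2 ratios of -0.22, 0.37, 0.34, -0.84 and -0.49. Replicates 2 and 3 were above 0 and the others below. In log2 normalized intensity the kaolin samples had 11.91, 12.14, 11.996, 11.84 and 11.90, against 12.13, 11.78, 11.66, 12.68 and 12.39 in the saline samples. The kaolin levels had an SD of 0.12 and the saline levels one of 0.42. The mean ratio of -0.17 ± 0.52 (SD, n = 5) had a 95% confidence interval from -0.61 to 0.27 (limma, adjusted p = 0.631). Without replicate 4 the mean was -0.00057, and turning the sign of replicate 2 gave -0.31 (limma, adjusted p = 0.218).

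Flt1 had 2 probes, both close to 0. The brighter (A_44_P520123, chr12:7924711-7941808) had log2 ratios of -0.04, 0.16, 0.06, -0.12 and 0.05, with a mean of 0.02 ± 0.10 (SD, n = 5). The other (A_43_P12015, chr12:8035639-8035698) had 0.07, 0.03, -0.02, 0.06 and 0.09, with a mean of 0.04 ± 0.04. Their 95% confidence intervals, -0.14 to 0.19 and -0.10 to 0.19, include 0 and no difference beyond 0.19 (limma, adjusted p = 0.873 and 0.706). Flt1 minus Kdr was 0.18, -0.21, -0.28, 0.72 and 0.54, with a mean of 0.19 ± 0.44, and an exact sign-flip test gave p = 0.4375 (two-sided, 0.4375 adjusted over 2 pairs).

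Nrp1, the co-receptor of VEGF-A and Sema3a, had log2 ratios of -0.51, -0.02, 0.27, 0.15 and -0.27 (A_42_P768978, chr19:58482301-58482792). The signs were mixed, with replicate 1 lowest. Its mean was -0.08 ± 0.32 (SD, n = 5; limma, adjusted p = 0.737). Nrp2 (A_43_P12465, chr9:61457268-61459905), the co-receptor favoured by VEGF-C, and Tek (A_44_P335594, chr5:115100183-115100647) were not well above background in either channel on any of the 5 arrays. No fold is given for them. The difference of Nrp2 and Nrp1 was therefore not formed.

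Over the 8 tested genes, taken as their brightest probes, 4 means were above 0 and 4 below, with a median of -0.03. The median of all 12047 tested genes was 0.03, and 56.5% of them were above 0. In absolute size, the members' median was 0.12, and that of all genes was 0.12 too. At an unadjusted p under 0.05 there were 3 of the 8 genes (Angpt2, Vegfa and Vegfb), and 18.9% of all tested genes. Higher was 1 of the 8 and 12.3% of all genes, and lower were 2 of the 8 and 6.61% of all genes.

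Other ligands and receptors of both families, and angiopoietin-like genes, were taken from a list of 8. Of these, 4 were tested, all with positive means and 0 past the adjusted threshold. Angptl4, a secreted lipase inhibitor induced by fasting and hypoxia, had log2 ratios of -0.02, -0.20, 1.08, 1.11 and 1.40. Replicates 3, 4 and 5 were high and the others near 0. Its mean was 0.67 ± 0.73 (SD, n = 5; limma, adjusted p = 0.253). Angptl2, an angiopoietin-like protein, was above 0 on 5 of 5 arrays with a mean of 0.33 ± 0.25 (adjusted p = 0.243). Tie1, the partner receptor of Tek, stood at 0.17 ± 0.29 and the Flt1 ligand Pgf at 0.06 ± 0.12 (adjusted p = 0.432 and 0.632). Vegfd, Flt4 and Angpt4 had probes that did not pass the filter, and Angptl1 was not matched to a probe.

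Signalling genes downstream of the receptors had 25 of 28 members tested, 15 above 0 and 10 below, with a median of 0.03. At an unadjusted p under 0.05 there were 2 higher and 2 lower, where all tested genes had 12.3% higher and 6.61% lower, and 0 passed after adjustment. The kinase genes Mapk3, at 0.39 ± 0.31, and Akt1, at 0.20 ± 0.13, lay above 0, and the protein kinase C gene Prkca lay below it at -0.28 ± 0.22 (adjusted p = 0.243, 0.247 and 0.243).

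Genes known to respond to VEGF had 16 of 20 members tested, 10 above 0 and 6 below, with a median of 0.01. There were 4 higher and 2 lower at an unadjusted p under 0.05, where all tested genes had 12.3% higher and 6.61% lower, and 0 after adjustment. Rcan1, a calcineurin inhibitor, stood at 0.32 ± 0.20 and Hey1, a Notch target, at 0.25 ± 0.14. Klf4, an endothelial transcription factor that other cells also express, stood at -0.31 ± 0.22 (adjusted p = 0.243 for each of the 3).

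Hypoxia genes, whose regulator Hif1a drives Vegfa transcription under low oxygen, had 17 of 18 members tested. Of these, 16 had positive means and 1 a negative one, with a median of 0.12, where 56.5% of all tested genes were above 0. At an unadjusted p under 0.05 in limma there were 2 higher and 0 lower, where all tested genes had 12.3% higher and 6.61% lower. After adjustment 0 passed. Adm, a vasodilator peptide, stood at 0.43 ± 0.46, Ndrg1 at 0.26 ± 0.23 and the oxygen sensor Egln2 at 0.16 ± 0.13 (adjusted p = 0.259, 0.251 and 0.290). The negative one was Ldha, at -0.09 ± 0.26, and Hif1a itself stood at 0.03 ± 0.12 (limma, adjusted p = 0.645 and 0.813); these 2 were picked after their values were seen.

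Partners of the neuropilins had 12 of 13 members tested, 7 above 0 and 5 below, with a median of 0.04 and 0 past the adjusted threshold. Sema3b, a neuropilin ligand, stood at 0.46 ± 0.45, and Gipc1, which binds the tail of Nrp1, at 0.28 ± 0.25. Plxna2, a plexin that signals with neuropilins, stood at -0.29 ± 0.36 (adjusted p = 0.246, 0.249 and 0.302).

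Endothelial markers were read beside these receptors, which vessels express. Of 21 listed, 20 were tested, 11 above 0 and 9 below, with a median of 0.01. Their median log2 ratio was -0.12, 0.15, 0.20, -0.03 and -0.21 on replicates 1 to 5. Summed normalized intensity ran from 28891 to 37555 in kaolin samples and from 31462 to 38794 in saline samples. Chosen after their values were seen, as the best known of the list, the junction gene Cdh5 stood at 0.05 ± 0.10, Pecam1 at 0.02 ± 0.18 and the tight junction gene Cldn5 at 0.04 ± 0.24. Ocln, at 0.32 ± 0.21, Erg, at -0.43 ± 0.53, and Slco1c1, at -0.32 ± 0.43, had the smallest p (adjusted p = 0.243, 0.284 and 0.318). The ratio of Kdr had the sign of the endothelial median on 5 of 5 arrays, though on replicate 4 the median was -0.03 and Kdr stood at -0.84. The brighter Flt1 probe differed from the median in sign on replicate 5, and Nrp1 on replicates 2 and 4. How many of all tested genes share the signs of Kdr was not counted. The part of vessel RNA in the receptors' ratios was not tested.

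Pericyte and smooth muscle markers had 10 of 12 members tested, 8 of them above 0, with a median of 0.07. Of all tested genes, 56.5% were above 0. Tagln, at 0.96 ± 0.75, and Des, at 0.78 ± 0.46, encode contractile and filament proteins and had the smallest p, followed by Abcc9 at -0.24 ± 0.35 (adjusted p = 0.243, 0.243 and 0.349). The list's median log2 ratio was 0.33 on replicate 3, 0.15 on replicate 5 and within 0.03 of 0 on the others. Their summed normalized intensity ran from 15501 to 20145 in kaolin samples and from 15580 to 16932 in saline samples. Angpt2 was also highest on replicates 3 and 5, as were the medians of the reactive astrocyte, microglia and meningeal fibroblast lists below. The part of any of these cells in the Angpt2 ratio was not tested.

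On replicates 3 to 5, the medians of the reactive astrocyte and the microglia lists were larger than any member's ratio. Of the reactive astrocyte markers, 8 of 10 were tested and 8 were above 0, with medians of 0.19, -0.13, 2.45, 2.02 and 2.48 on replicates 1 to 5. Their summed normalized intensity ran from 13987 to 82468 in kaolin samples and from 12531 to 16459 in saline samples. The intermediate filament gene Gfap stood at 1.81 ± 1.23, S100a10 at 0.87 ± 0.72 and Lcn2 at 1.55 ± 1.37 (limma, adjusted p = 0.243 for each). Of the microglia and macrophage markers, 12 of 13 were tested and 12 were above 0, with array medians of -0.12, 0.06, 1.81, 1.33 and 1.55. Their summed intensity ran from 22182 to 101182 in kaolin samples and from 19511 to 23739 in saline samples. The complement gene C1qb, at 1.51 ± 1.06, the adaptor Tyrobp, at 1.53 ± 1.1, and Aif1, at 1.12 ± 0.84, had the smallest p of that list (limma, adjusted p = 0.243 for each). On these arrays lay the lowest ratios of Vegfa and the highest of Angpt2, while of the Vegfb probes the brighter was lowest on replicate 5 and the dimmer on replicate 1. The part of glial cells in the members' ratios was not tested.

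Choroid plexus markers were read because that epithelium makes Vegfa. Of 11 listed, 7 were tested, 6 of them below 0. Of these 6, Otx2 (above background in kaolin on 1 array and in saline on 4) and Clic6 (on 0 and 3) passed the filter only through saline, so their sign was favoured by the filter. The 7 genes had array medians of -0.66, -0.65, -0.92, -0.26 and -0.03. Their summed normalized intensity ran from 10633 to 23746 in kaolin samples and from 11456 to 64389 in saline samples. The thyroxine carrier Ttr stood at -2.85 ± 1.80 and the channel subunit Kcne2 at -0.54 ± 0.40, both above background in both channels on 5 of 5 arrays (limma, adjusted p = 0.243 for each). The transcription factor Otx2, also among the smallest p of the list, is given no ratio because its kaolin signal was mostly at background. The plexus markers Kl, Slc4a5, Prlr and Cldn2 did not pass the filter on dim probes. Vegfa was lowest on replicate 5, where this list was nearest to 0. The part of plexus tissue in the Vegfa ratio was not tested.

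Among the remaining cell types, 10 of 11 neuron markers were below 0 (median -0.22), led by Stmn2 at -0.23 ± 0.16, Nefm at -0.50 ± 0.63 and Camk2a at -0.33 ± 0.40. Array medians of the neuron list were -0.30, 0.19, -0.39, -0.27 and -0.27 on replicates 1 to 5. The brighter Vegfa probe had their sign on every array, while the dimmer one differed on replicate 1. How many of all tested genes share these signs was not counted, and the part of neurons in the Vegfa ratio was not tested. Astrocyte markers had 5 above and 5 below 0 (median 0.04), with Fgfr3 at 0.24 ± 0.15, Aqp4 at 0.43 ± 0.39 and Gja1 at 0.37 ± 0.45. Oligodendrocyte markers had 6 above and 4 below (median 0.05), with Cspg5 at 0.28 ± 0.34 and Sox10 at 0.08 ± 0.15. Array medians of this list were 0.22, 0.11, 0.13, 0.18 and -0.62 on replicates 1 to 5. Its summed normalized intensity ran from 137827 to 244246 in kaolin samples and from 241678 to 276395 in saline samples. Meningeal fibroblast markers had 9 above and 1 below (median 0.14), with Aldh1a2 at 0.22 ± 0.47, Slc6a13 at 0.28 ± 0.62 and Slc22a6 at 0.18 ± 0.44. Their array medians were -0.49, -0.13, 0.79, 0.11 and 0.46 on replicates 1 to 5. In limma, 0 genes of these 4 lists passed after adjustment.

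**Figure D4:**
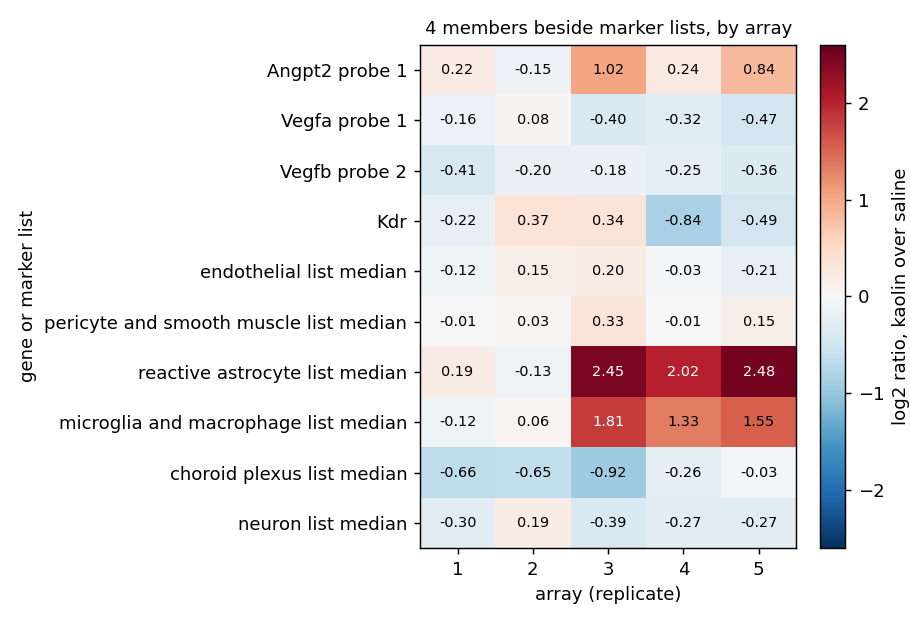
Log2 ratio of kaolin over saline on each array (columns) for 4 member probes and for the median of 6 marker lists (rows), with colour from blue (lower in kaolin) to red (higher) and the value printed in each cell. The reactive astrocyte and microglia lists reach 1.33 to 2.48 on replicates 3 to 5 and lie within 0.19 of 0 on replicates 1 and 2, while no member ratio exceeds 1.02.

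The choice of normalization moved the members by unequal amounts. With each array's log2 ratios centred on their median in place of loess, the median of all tested probes shifted by -0.09. The mean of Angpt1 was then 0.05, and that of the dimmer Flt1 probe 0.05 as well, both close to their main values. Angpt2 then stood at 0.26, Vegfa at -0.39, Vegfb at -0.33 and Kdr at -0.39. Relative to that median they stood at 0.35, -0.29, -0.24 and -0.29. Taken as their brightest probes, these 4 genes kept their signs under every alternative run, whereas Vegfc, Flt1 and Nrp1 did not. The dimmer Vegfa probe turned to 0.0015 without replicate 5.

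**Figure D5:**
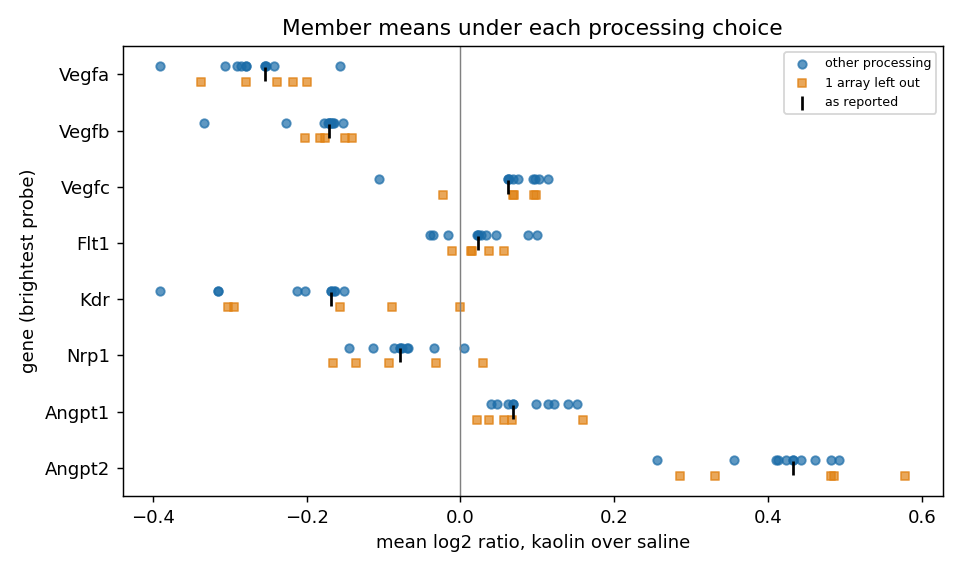
Mean log2 ratio of kaolin over saline (horizontal axis) of the brightest probe of each tested member gene (rows), as reported (black ticks), under other processing (circles) and with 1 array left out (squares). Angpt2 ranges from 0.26 to 0.58 and Vegfa from -0.39 to -0.16, and Vegfc, Flt1 and Nrp1 cross 0.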

How the data were processed

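Parietal cortex RNA of 5 kaolin and 5 saline samples was read on 5 two-colour arrays. Per the file headers, the deposited spot signals and local backgrounds are raw intensity values made with Agilent Feature Extraction 10.1.1.1, and its processed signals are intensity values after background subtraction and dye normalization. The software's log ratio is, per the file headers, the log10 of Cy5 over Cy3, and was used to check direction. The authors deposited a table of log2 ratios with no stated normalization. Its columns have medians from -0.10 to 0.09 and followed kaolin over saline with correlations of 0.978 to 1.00 across probes, so its direction and log scale were taken from that match.

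In limma 3.58.1 (R 4.3.3), signals were corrected by normexp (offset 50), normalized by loess within arrays and averaged over the spots of a probe, without control and outlier spots. No spot was saturated. A probe was tested if 3 or more of the 5 arrays had it well above background in either channel. The mean ratio was set against 0 with lmFit and eBayes, and p-values of 29114 probes were adjusted by Benjamini-Hochberg (threshold 0.05). Levels are log2 intensities after Aquantile normalization between arrays. A gene is its brightest tested probe. Gene names were updated through RefSeq by accession or symbol where they matched, and the file's name was kept for 21618 probes. The number of arrays limits the precision. The fit was tested on simulated data.

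Members and lists were chosen with earlier results of these data known. Every member probe is reported. From each list, the 3 genes with the smallest unadjusted p are named, and from the other ligands and receptors all are; 1 gene that this rule takes is not reported here. The 3 genes most like the member with the largest mean were taken by root mean square difference. Differences between members were tested by exact sign flips over arrays. Alternatives covered normalization, background, signal source, filter, array weights, slide, the sign of replicate 2, the probe that stands for a gene, and each array left out.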

Additional observations from a re-analysis of the deposited data

Results flagged for a closer look

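Vegfc on replicate 3 stood apart from the other 4 arrays. Its log2 ratio of kaolin over saline was 0.40 there, against -0.08 to 0.04 elsewhere, and the gap to the nearest array was 0.754 of the whole range (the Dixon critical value for 5 arrays is 0.71). By chance about 5% of groups pass this limit, and 15 member probes were examined, those of Nrp2 and Tek among them.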

How the results depend on the processing

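Of 15 alternatives, array weights alone took a member probe past an adjusted p of 0.05 in limma (1 probe, against 0 in the main analysis and the others), the dimmer Vegfb probe (adjusted p = 0.047). With 1 array left out the count ranged from 0 to 0. Over all tested probes the calls numbered 2830 with array weights, 1536 without replicate 2, 489 with the sign of replicate 2 turned, 22 with median centring, 1 without replicate 1 and 0 in the main analysis; the cause was not tested. Angpt2 kept its sign under 16 alternatives (0.26 to 0.58, adjusted p 0.0748 to 0.67), as did Vegfa (-0.39 to -0.16, 0.0506 to 0.66) and Vegfb (-0.33 to -0.14, 0.0937 to 0.659), and Kdr did under 15 (-0.39 to -0.00057) and Angpt1 (0.02 to 0.16). The mean of Vegfc turned to -0.11 with median centring, and with 1 array left out it ranged from -0.023 (without replicate 3) to 0.098. That of Flt1 turned to -0.035 with median centring, -0.016 with array weights and -0.040 when replicate 2 had its sign turned, and ranged from -0.011 (without replicate 2) to 0.057 with 1 array left out. That of Nrp1 turned to 0.0046 with array weights and ranged from -0.17 to 0.030 (without replicate 1) with 1 array left out. Angpt2 minus Angpt1 ranged from 0.26 to 0.51 with 1 array left out, and Flt1 minus Kdr from 0.06 to 0.31. With median centring they were 0.21 and 0.36. Turning the sign of replicate 2 gave 0.45 and 0.27 (exact sign-flip p = 0.0625 and 0.25). Replicate 2 was the only array with Angpt2 below Angpt1, so turning its sign makes every Angpt2 minus Angpt1 difference positive. The p of 0.0625, the smallest possible, follows from that turn alone and is no evidence of a difference. The main analysis is already paired by array, since each array sets 1 kaolin against 1 saline sample, and no second pairing is labelled. Nrp2 and Tek lay at background, so signal limits any statement on them.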
